A study of Marchantia polymorpha with 9 samples.

Results

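A group of 54 genes had a lower transcript level in OX thalli and in KO thalli than in WT thalli, by at least 2-fold in each, of the liverwort Marchantia polymorpha, out of 19287 gene IDs in the deposited count table. They were chosen by these measured values. Counts were divided by the library total and multiplied by 1000000, which gives the unit CPM, and averaged over the 3 libraries of a genotype. A member had a log2 ratio to WT of -1 or less in OX and in KO, computed with 0.1 CPM added to each mean. It also had at least 1 CPM in its highest genotype, and every OX and every KO library lay below every WT library. IDs of the Y chromosome and IDs on scaffolds with fewer than 3 gene IDs were skipped, which left 18596 IDs, and 12578 of these passed the level limit. The fall from WT is thus what chose the genes, and it is given below as a description. Where a test against WT is printed for members, it uses the values that chose them and is no support for the fall.

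Each sample was about 100 mg of fresh thallus, the flat vegetative body of this liverwort, from male plants of the Cambridge strain, grown from gemmae for 10 days at 22 °C with 16 h of light and 8 h of darkness. Strain, sex, age and growth conditions were shared by all 3 genotypes, which the labels call WT, OX and KO, with 3 libraries each. By common usage the labels stand for wild type, overexpression and knockout plants; they name neither the altered gene nor the line or promoter used. The series title concerns a MIXTA-type MYB lineage, and the design text speaks of 3 biological replicates for each line, so a difference between genotypes cannot be told apart from a difference between lines.

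MIXTA-type MYB proteins are transcription factors that are known from flowering plants for shaping epidermal cells and, in several species, for promoting the synthesis of the cuticle. The cuticle is the layer of cutin and wax that covers the epidermis of land plants and limits water loss. The thallus of Marchantia carries such a layer over an epidermis that is pierced by air pores and bears gemma cups. The file does not pair its gene IDs, which belong to version 3.1 of the gene models, with names or products. The reference table used here, of assembly MpTak2_v7.1, shares 0 IDs with the file, so no function, sequence or genome position is given for any member, and the labelled tissue was not checked against marker genes. What an ID does show is its scaffold number and its gene number along that scaffold.

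Library totals ranged from 44802998 counts in WT replicate 2 to 57696744 counts in OX replicate 2. Every count was an even number, so each fragment seems to enter the table with both of its mates, and pairs (counts divided by 2) are used wherever the number of observed fragments matters. The limit that 0 pairs allow in a library, 3 pairs, corresponds to 0.104 to 0.134 CPM. This limit and the counting intervals below cover counting error only. Since CPM is not scaled to gene length, which was not used here, levels are compared between samples for the same gene and not between genes. In RNA from whole thalli, fewer cells of a type and less RNA per cell cannot be told apart.

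Most of the members were covered by few reads per library. The mean WT level ran from 1.01 to 606 CPM with a median of 3.02 CPM, and 35 of the 54 genes had less than 5 CPM in WT. The mean level in OX ran from 0 to 134 CPM with a median of 0.409 CPM, and that in KO from 0.0348 to 185 CPM with a median of 1.20 CPM. The fall was deeper in OX for most of the genes. The level left in OX had a median of 11.4% of WT (quartiles 5.24% and 25.9%), and the level left in KO a median of 32.8% (quartiles 25.3% and 43.2%). In OX, 26 genes were at or below 10% of WT, whereas in KO 6 genes were.

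The conditions on OX and on KO were each met by many more genes than both together. The OX condition alone was met by 443 genes, of which the 54 are 12.2%, and the KO condition alone by 199 genes, of which they are 27.1%. Both conditions use the same 3 WT libraries. In edgeR's quasi-likelihood test, the comparisons that chose the genes, all 54 were called lower in OX than in WT (highest adjusted p = 0.0349), where 14.3% of the 14813 genes tested were called lower. In KO 48 were called lower than in WT, where 7.64% of all genes tested were. The other 6 members had adjusted p-values of up to 0.118 in edgeR, and they are members by fold and separation of libraries only. They were Mapoly0008s0176, Mapoly0015s0186, Mapoly0037s0002, Mapoly0090s0002, Mapoly0161s0033 and Mapoly0175s0025, named here because they were not called. Nothing is read from these counts, because the same values selected the genes.

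**Figure D1:**
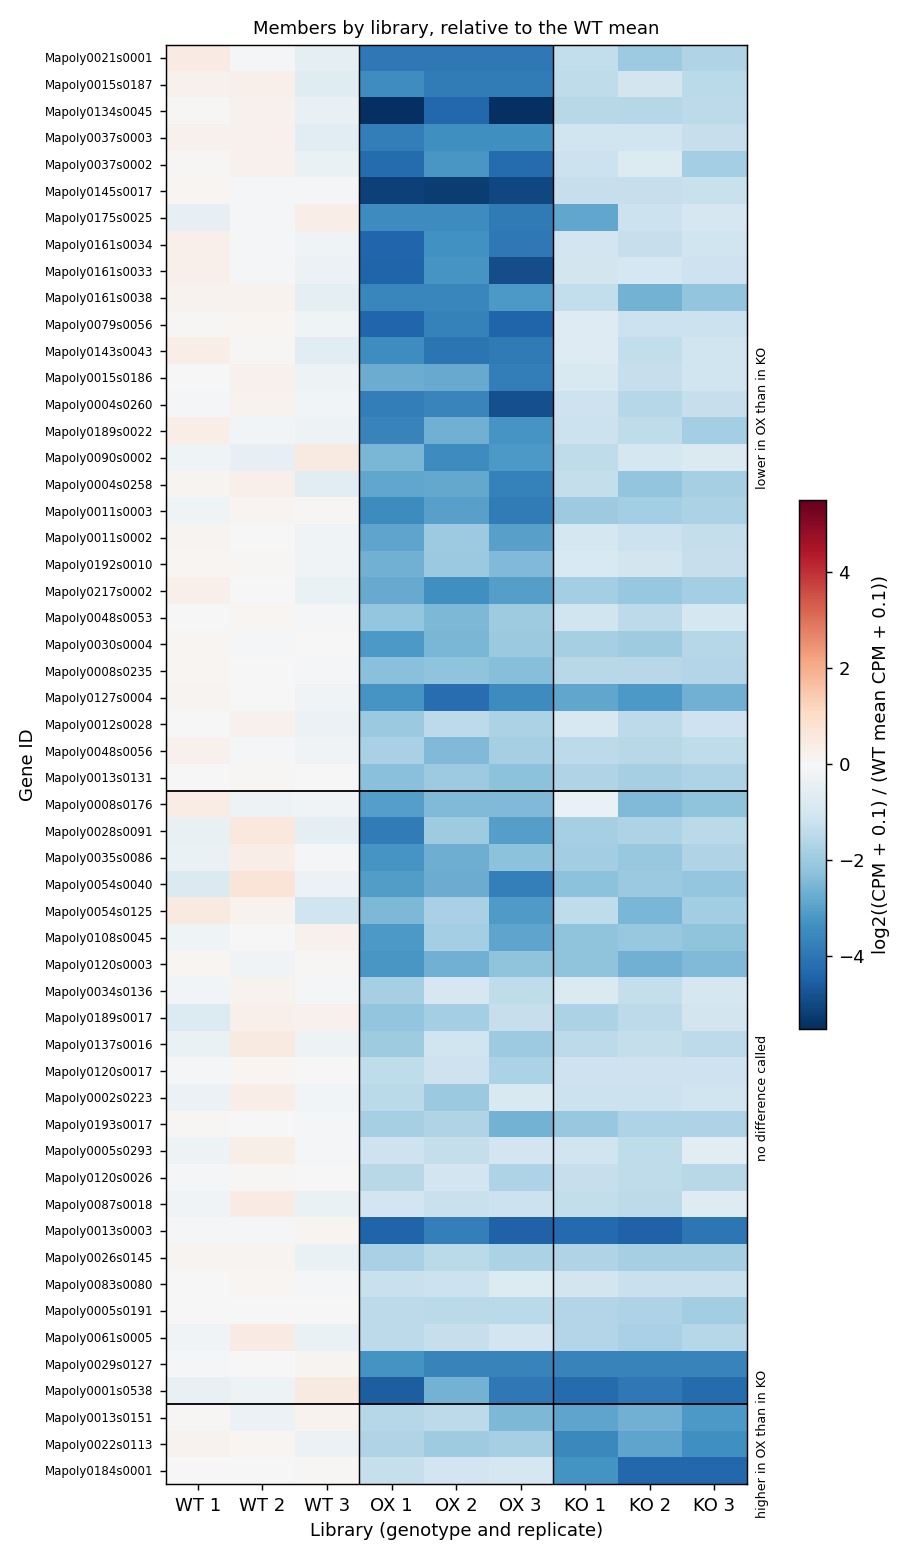
Levels of the 54 members in each of the 9 libraries, as log2 of CPM + 0.1 over the WT mean + 0.1 (colour), with 1 row per gene ID and the rows divided by the OX against KO test into lower in OX (28), no difference called (23) and higher in OX (3). The OX columns are the darkest in the upper block, and the KO columns in the 3 lowest rows.

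The comparison of OX with KO asks whether the genes were lowered to the same degree in the 2 altered genotypes. The rule sets an upper limit for both genotypes and does not fix their order. The same OX and KO values chose the members, however, while the genes tested as background were not chosen by them. The shares of members below are therefore a description, and their gap to the background is not read as a trait of the members. All 54 genes passed the low-count filter and were tested among 14813 genes with edgeR's quasi-likelihood test, with p-values adjusted over all of them. Of the 54, 28 were lower in OX than in KO (51.9%, against 19.1% of all genes tested), and 3 were higher in OX (5.56%, against 15.6%). The other 23 did not pass. Among the genes of 1 to 5 CPM in WT, where most members lie, 23.7% were called lower in OX. The median log2 fold change of OX against KO was -0.89 over the members, also with the 1 gene without OX pairs set to its bound, and -0.002 over all genes tested. In 31 members every OX library lay below every KO library (18.6% of all genes tested did), in 5 every OX library lay above (33.7% of all genes tested did), and in 18 the libraries overlapped. These separations use CPM from library totals, under which the median log2 fold change over all genes tested was 0.075. The shares of all genes are thus not counts of called differences, and their dependence on the scaling was not tested.

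The limit on KO leaves room mainly on the side of OX for members that barely met it. Of the 28 members whose log2 KO ratio lay between -1.5 and -1, 18 were lower in OX and 27 had the lower ratio to WT in OX. Of the 26 members with a lower KO ratio, 10 were lower in OX, 3 were higher in OX and the other 13 did not pass. At the OX limit, 10 members had a log2 OX ratio between -1.5 and -1; of these 0 were lower in OX than in KO and 1 was higher.

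**Figure D2:**
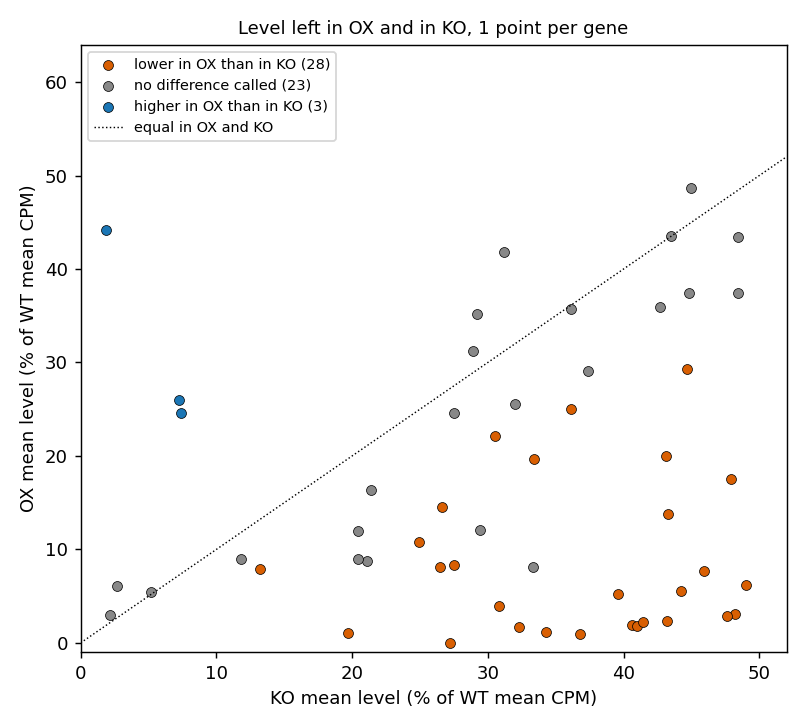
Mean level left in OX (vertical axis) against that left in KO (horizontal axis), each in percent of the WT mean, with 1 point per member coloured by the OX against KO test and a dotted line where both are equal. The 28 genes lower in OX lie below the line, many of them close to 0 in OX with 30% to 50% left in KO, and the 3 genes higher in OX lie at less than 8% in KO.

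The 28 genes that were lower in OX kept a median of 5.87% of their WT level in OX (0 to 29.3%) and a median of 38.2% in KO (13.2% to 49.0%). Their fitted log2 fold changes of OX against KO ran from -7.45 to -0.54, where the lowest belongs to the gene without OX pairs and is no bound. In all 28 the OX libraries lay below the KO libraries without overlap.

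Mapoly0145s0017 had the lowest adjusted p of the 28. It had 16.8, 14.8 and 14.4 CPM in WT replicates 1 to 3, 0.338, 0.312 and 0.385 CPM in OX, and 6.31, 6.31 and 6.47 CPM in KO. The genotypes form 3 narrow and separate levels, with 2.25% of WT left in OX and 41.4% left in KO. The log2 fold change of OX against KO was -4.27 ± 0.13 (approximate SE, n = 3 libraries each, edgeR adjusted p = 6.13e-09).

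Mapoly0134s0045 showed the same order with almost nothing left in OX. It had 7.23, 8.08 and 5.16 CPM in WT, 0, 0.243 and 0 CPM in OX, and 2.30, 2.25 and 2.47 CPM in KO. All 7 of its OX pairs came from replicate 2, while the 3 KO libraries agreed closely. Its log2 fold change of OX against KO was -4.86 ± 0.61 (edgeR adjusted p = 0.000156), and without OX replicate 2, with the other OX libraries at 0, the fitted value was -10.04.

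Mapoly0021s0001 had no pair in any OX library. It had 1.99, 1.29 and 0.941 CPM in WT and 0.488, 0.277 and 0.383 CPM in KO. With 33 pairs in KO, its level there was 10.7-fold the level that 3 pairs would give over all OX libraries (edgeR adjusted p = 0.000518 for OX against KO). With 113 pairs, its level in WT was 39.7-fold that same level. Neither value includes the counting error of the KO or WT pairs. The WT and KO libraries did not overlap, which the rule requires of every member, and WT replicate 3 was the lowest of its genotype.

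In 5 further genes the 3 OX libraries together held 1 to 3 pairs. Mapoly0015s0187 had 1 pair in OX, in replicate 1, 43 in KO and 106 in WT, a ratio of KO to OX of 41.9 with a 95% exact counting interval of 7.13 to 1693 (edgeR adjusted p = 0.000367). Mapoly0037s0003 had 2 pairs in OX, 46 in KO and 102 in WT, a ratio of KO to OX of 22.4 with an interval of 5.86 to 191 (edgeR adjusted p = 0.000195). These genes are therefore close to the limit of detection in OX and clearly counted in KO. The other 3, which were named after their values were seen or for their position, were Mapoly0037s0002, Mapoly0175s0025 and Mapoly0161s0038, with 3, 2 and 1 pairs in OX and 62, 39 and 19 pairs in KO.

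A second set of the 28 genes kept a measurable level in OX. Mapoly0143s0043 had 9.99, 8.08 and 5.02 CPM in WT, 0.638, 0.381 and 0.420 CPM in OX, and 4.74, 2.98 and 3.58 CPM in KO, with a log2 fold change of OX against KO of -3.05 ± 0.32 (edgeR adjusted p = 4.95e-05). Its WT libraries differed by up to 2-fold among themselves, and its highest KO library came close to its lowest WT library. Mapoly0008s0235 was even across replicates, with 13.3, 12.5 and 11.6 CPM in WT, 2.44, 2.57 and 2.34 CPM in OX, and 4.29, 4.20 and 3.97 CPM in KO. Its log2 fold change of OX against KO was -0.84 ± 0.099 (edgeR adjusted p = 0.000105), so that a modest gap was well resolved.

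Mapoly0013s0131 was by far the most highly counted member, with 48166 pairs in WT. It had 589, 626 and 602 CPM in WT, 122, 152 and 128 CPM in OX, and 195, 173 and 187 CPM in KO. OX kept 22.1% and KO 30.5% of the WT level, and the log2 fold change of OX against KO was -0.54 ± 0.071 (edgeR adjusted p = 0.000206). The spread within each genotype was small against the fall from WT, and the OX and KO libraries did not overlap.

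Mapoly0048s0056 had 31.4, 25.9 and 23.3 CPM in WT, 7.74, 4.85 and 7.52 CPM in OX, and 9.83, 9.19 and 10.1 CPM in KO (log2 fold change of OX against KO -0.61 ± 0.17, edgeR adjusted p = 0.0185). Mapoly0127s0004 fell far in both, with 18.5, 16.5 and 14.4 CPM in WT, 1.65, 0.797 and 1.43 CPM in OX, and 2.16, 1.77 and 2.57 CPM in KO. OX kept 7.87% and KO 13.2%, and the difference between them was near the threshold (log2 fold change -0.82 ± 0.24, edgeR adjusted p = 0.0237). It did not pass without OX replicate 2 (adjusted p = 0.0541), without KO replicate 3 (adjusted p = 0.0792) or in limma-voom (adjusted p = 0.0544).

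The 3 genes that were higher in OX than in KO kept 24.6% to 44.2% of WT in OX and 1.86% to 7.41% in KO. Mapoly0184s0001 had 1.85, 1.83 and 1.95 CPM in WT, 0.714, 0.867 and 0.910 CPM in OX, and 0.105, 0 and 0 CPM in KO. Its 3 KO pairs all came from replicate 1, against 70 pairs in OX, a ratio of OX to KO of 23.9 with a 95% exact counting interval of 7.86 to 119 (edgeR adjusted p = 0.000297). This gene was thus near the limit of detection in KO and at an intermediate, even level in OX.

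Mapoly0022s0113 had 3.11, 2.90 and 2.13 CPM in WT, 0.789, 0.624 and 0.700 CPM in OX, and 0.139, 0.277 and 0.174 CPM in KO (log2 fold change of OX against KO 1.75 ± 0.30, edgeR adjusted p = 0.00138). Mapoly0013s0151 had 1.47, 1.12 and 1.64 CPM in WT, 0.413, 0.451 and 0.175 CPM in OX, and 0.105, 0.139 and 0.0696 CPM in KO. Its OX and KO libraries did not overlap, but OX replicate 3 was close to the KO libraries. The log2 fold change of 1.63 ± 0.45 (edgeR adjusted p = 0.0169) lost its call without OX replicate 1, without OX replicate 2 or without KO replicate 3 (adjusted p = 0.0526, 0.0633 and 0.0609).

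**Figure D3:**
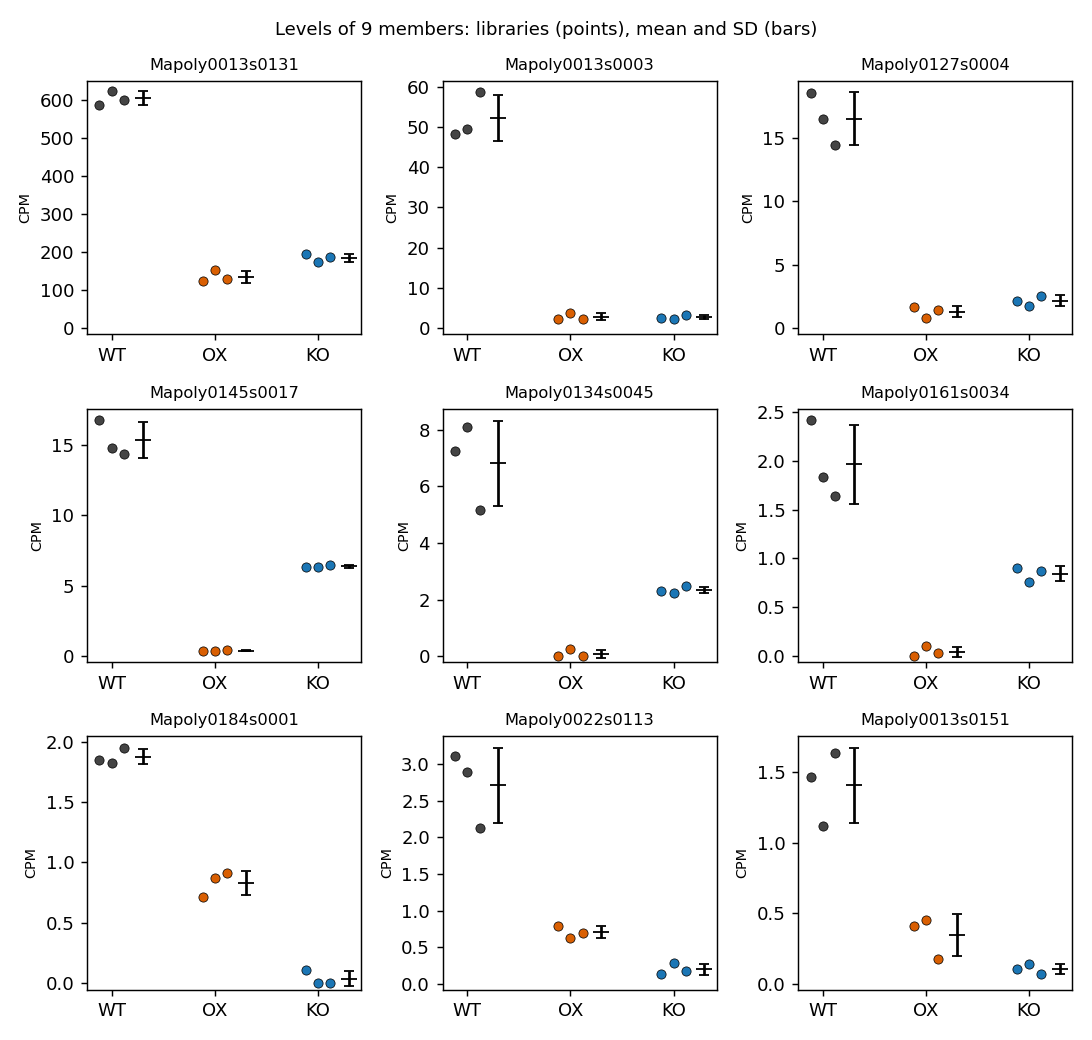
CPM of 9 members in the WT, OX and KO libraries (points, replicates 1 to 3 from left to right), with the mean and SD of 3 libraries beside them; each panel has its own linear axis. Mapoly0013s0003 stands at the same low level in OX and KO, Mapoly0145s0017, Mapoly0134s0045 and Mapoly0161s0034 are near 0 in OX and intermediate in KO, and Mapoly0184s0001, Mapoly0022s0113 and Mapoly0013s0151 in the lowest row are lowest in KO.

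Among the 23 genes without a called difference, the median level was 25.6% of WT in OX (2.99% to 48.7%) and 29.4% in KO (2.15% to 48.4%). Mapoly0013s0003 fell the furthest of the members above 5 CPM in both genotypes, averaged on the log2 scale. It had 48.2, 49.6 and 58.6 CPM in WT, 2.37, 3.81 and 2.31 CPM in OX, and 2.58, 2.32 and 3.24 CPM in KO. OX and KO overlapped at 5.43% and 5.20% of WT, with a log2 fold change between them of -0.01 ± 0.19 (edgeR adjusted p = 0.965).

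The same near loss in both genotypes was seen in 2 genes with fewer pairs, named here after their values were seen. Mapoly0029s0127 had 129 pairs in the 3 WT libraries, 4 in OX and 3 in KO, and the ratio of OX to KO was 1.37 with a 95% exact counting interval of 0.232 to 9.34. Mapoly0001s0538 had 3.05 ± 1.16 CPM in WT (SD, n = 3), 0.186 ± 0.202 in OX and 0.0811 ± 0.0198 in KO, and its OX against KO difference of 1.12 ± 0.78 on the log2 scale did not pass (edgeR adjusted p = 0.301). For such low counts the interval of the difference is wide, and equal levels are not shown. Together with Mapoly0013s0003 these are the 3 members at or below 10% of WT in both genotypes, and 6 were at or below 20% in both.

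Other members without a called difference fell by a smaller and similar amount. Mapoly0120s0017 had 12.7, 14.7 and 13.2 CPM in WT, 5.11, 6.03 and 4.02 CPM in OX, and 6.03, 6.14 and 6.02 CPM in KO. The KO libraries were nearly equal, 2 OX libraries lay below all of them and OX replicate 2 reached their level. The log2 difference of -0.34 ± 0.13 did not pass (edgeR adjusted p = 0.0721). It passed in DESeq2 (adjusted p = 0.0473) and without OX replicate 2 (-0.48, adjusted p = 0.0207), and moved to -0.19 without OX replicate 3 (adjusted p = 0.225).

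Mapoly0061s0005 had 10.0, 15.8 and 8.86 CPM in WT, 4.17, 4.75 and 5.56 CPM in OX, and 3.70, 3.26 and 3.86 CPM in KO. All 3 OX libraries lay above all 3 KO libraries, but the log2 difference of 0.35 ± 0.21 did not pass (edgeR adjusted p = 0.237). Its WT mean rests in part on WT replicate 2, which stood well above the other 2. Mapoly0005s0191, named after its values were seen, was also without overlap (2.65 ± 0.0524 CPM in OX, 2.20 ± 0.224 in KO, SD, n = 3 each) and did not pass (edgeR adjusted p = 0.226).

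The fold limit cut through a continuous range of values. Just inside it, Mapoly0034s0136 had 3.14, 3.97 and 3.38 CPM in WT, 0.901, 1.77 and 1.26 CPM in OX, and 1.95, 1.35 and 1.77 CPM in KO, a log2 KO ratio of -1.005. Also just inside, Mapoly0005s0293 had 3.11, 4.73 and 3.52 CPM in WT, 1.69, 1.49 and 1.75 CPM in OX, and 1.71, 1.39 and 2.40 CPM in KO, a log2 KO ratio of -1.009. Both were therefore members by a narrow margin in KO and by a wider one in OX.

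Just outside it, Mapoly0185s0032 had 10.3, 10.6 and 7.67 CPM in WT, 0, 0.312 and 0 CPM in OX, and 5.40, 4.20 and 4.70 CPM in KO, a log2 KO ratio of -0.985. Mapoly0112s0030 missed the limit in OX, with 2.72, 5.85 and 4.25 CPM in WT, 1.99, 2.29 and 2.17 CPM in OX, and 1.85, 2.25 and 1.84 CPM in KO, a log2 OX ratio of -0.96. The first of these shows the order described for Mapoly0134s0045, near 0 in OX and intermediate in KO. In all, 10 members lay within 0.1 log2 units inside the limit and 12 other genes within 0.1 outside it. A further 7 genes missed only the separation of libraries and 32 missed only the level limit.

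The members lay on 39 scaffolds, and some were close neighbours by gene number, which the rule did not use. Of the 54 members, 17 (31.5%) had another member within 10 gene numbers on the same scaffold, and 8 (14.8%) had one at the next number. Of the 12524 other genes past the level limit, 466 (3.72%) had a member within 10 gene numbers and 50 (0.399%) at the next number. The 17 members formed 8 runs, 7 of them pairs and 1 of them a group of 3. In 6 of the 8 runs all members were lower in OX than in KO. Counting Mapoly0189s0022, from a run of mixed kind, 14 of the 28 genes lower in OX had a member close by and 14 had none.

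The run of 3 was on scaffold 161. Mapoly0161s0033 had 3.49, 2.72 and 2.27 CPM in WT, 0.0376, 0.208 and 0 CPM in OX, and 1.36, 1.42 and 1.25 CPM in KO (log2 fold change of OX against KO -4.06 ± 0.56, edgeR adjusted p = 0.000293, and -6.11 without OX replicate 2). Mapoly0161s0034, the next gene number, had 2.41, 1.83 and 1.64 CPM in WT, 0, 0.104 and 0.0350 CPM in OX, and 0.906, 0.763 and 0.870 CPM in KO (log2 fold change -4.17 ± 0.50, edgeR adjusted p = 0.000126). Mapoly0161s0038 had 1.29, 1.29 and 0.767 CPM in WT, a pair in 1 OX library only, and 0.383, 0.104 and 0.174 CPM in KO, and its ratio of KO to OX was 18.5 with a 95% exact counting interval of 2.94 to 769 (edgeR adjusted p = 0.00649). In all 3 genes the mean was highest in WT, intermediate in KO and near 0 in OX, and WT replicate 3 was the lowest WT library. For Mapoly0161s0033 the fall from WT to KO was not called (edgeR adjusted p = 0.0973).

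Genes between and after them also had fewer pairs in OX and KO than in WT, but were under the level limit. Mapoly0161s0036 had 78 pairs in WT, 6 in OX and 32 in KO and missed the level limit with 0.979 CPM in WT. Its fall from WT was called in OX (edgeR adjusted p = 0.00578) but not in KO (edgeR adjusted p = 0.189). Mapoly0161s0037 had 26, 1 and 4 pairs and Mapoly0161s0039 had 20, 1 and 2 pairs in WT, OX and KO. The latter was called lower in both (edgeR adjusted p = 0.00641 in OX and 0.0204 in KO). Mapoly0161s0037 was not tested, nor was Mapoly0161s0035, with 7, 0 and 4 pairs. The gene before the run, Mapoly0161s0032, was at 98.3 ± 12.5 CPM in WT, 108 ± 8.55 in OX and 98.6 ± 12.6 in KO (SD, n = 3 each), so the low levels began with the next number. Neighbours are named here for their position, as are those below.

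The pairs on scaffolds 15 and 37 had the same order of genotype means. The fall from WT to KO was not called for Mapoly0015s0186 or Mapoly0037s0002 (edgeR adjusted p = 0.0782 and 0.0923). Mapoly0015s0186, with 103 pairs in WT, 6 in OX and 50 in KO, stands before Mapoly0015s0187, described above, and the preceding Mapoly0015s0185 had 9.64 ± 1.60 CPM in WT, 0.400 ± 0.254 in OX and 5.02 ± 0.627 in KO and missed the KO limit with a log2 ratio of -0.93. On the other side, Mapoly0015s0188 was at 91.8 ± 7.16, 77.6 ± 1.30 and 81.5 ± 2.28 CPM. This gene had log2 ratios to WT of -0.24 in OX and -0.17 in KO, so the large falls stopped between adjacent gene numbers. Mapoly0037s0002 and Mapoly0037s0003 followed Mapoly0037s0001, which had 50 pairs in WT, 3 in OX and 23 in KO and was under the level limit. For Mapoly0037s0001 the fall from WT was called in OX (edgeR adjusted p = 0.00741) but not in KO (edgeR adjusted p = 0.268).

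On scaffold 11, Mapoly0011s0002 had 2.65 ± 0.357 CPM in WT, 0.366 ± 0.194 in OX and 1.15 ± 0.161 in KO, and Mapoly0011s0003 had 6.42 ± 0.855, 0.522 ± 0.191 and 1.70 ± 0.173 CPM. The next gene, Mapoly0011s0004, stood at 13.4 ± 0.812, 13.6 ± 0.117 and 15.4 ± 0.457 CPM. On scaffold 4 the members were not adjacent. Mapoly0004s0258 (2.57 ± 0.79 CPM in WT, 0.215 ± 0.0956 in OX, 0.708 ± 0.249 in KO) and Mapoly0004s0260 (8.75 ± 1.23, 0.453 ± 0.216 and 3.47 ± 0.518 CPM) enclosed Mapoly0004s0259, at 15.2 ± 0.456, 13.7 ± 1.42 and 13.0 ± 0.257 CPM, which passed neither comparison with WT (edgeR adjusted p = 0.0737 in OX and 0.108 in KO).

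The pair on scaffold 48 lay among genes with other patterns. Mapoly0048s0053 (3.57 ± 0.303 CPM in WT, 0.715 ± 0.146 in OX, 1.54 ± 0.269 in KO) and Mapoly0048s0056 enclosed Mapoly0048s0054, which had 11.6 ± 0.57 CPM in WT, 14.6 ± 1.24 in OX and 3.01 ± 0.0761 in KO. The gene after the pair, Mapoly0048s0057, likewise had 34.1 ± 8.02 CPM in WT, 54.1 ± 2.31 in OX and 9.54 ± 0.99 in KO. For these 2 neighbours edgeR called a fall in KO (adjusted p = 4.43e-07 and 1.48e-05) and a rise in OX (adjusted p = 0.0332 and 0.00585). A member and its neighbour thus moved in opposite directions in OX.

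The remaining pairs, on scaffolds 120 and 189, were separated by genes that did not share the fall. Between Mapoly0120s0017 and Mapoly0120s0026 lay Mapoly0120s0024, which rose from 11.0 ± 3.13 CPM in WT to 26.6 ± 1.73 in OX and 22.0 ± 1.71 in KO (edgeR adjusted p = 0.000221 and 0.0014). Between Mapoly0189s0017 and Mapoly0189s0022 lay 4 genes whose log2 ratios to WT ran from -0.45 to 0.63. Over all 8 runs, 18 other genes stood between members, and 14 of them passed the level limit. Whether neighbours are copies of each other was not examined, since no sequence was used, and reads of near-identical copies may have been split or dropped in the authors' counting.

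**Figure D4:**
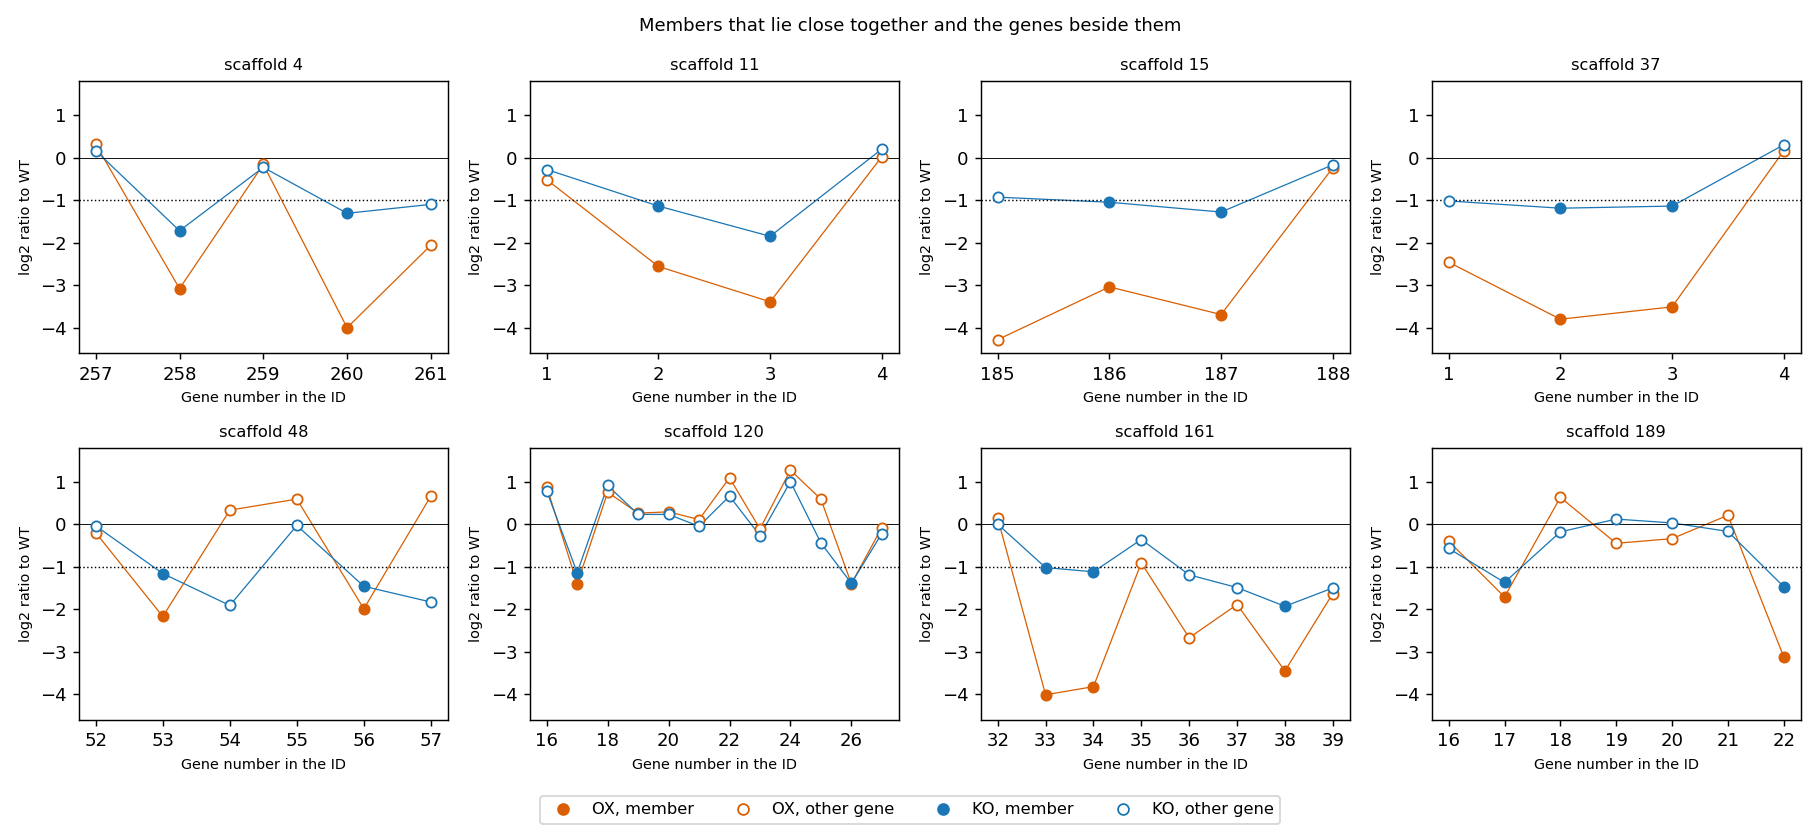
Log2 ratios to WT (0.1 CPM added) in OX (orange) and KO (blue) for the 8 runs of members within 10 gene numbers of each other, with the gene before and after each run, against the gene number in the ID; filled points are members, open points other genes, and the dotted line is the fold limit of -1. On scaffolds 11, 15, 37 and 161 adjacent genes are low together with OX below KO. On scaffolds 120 and 189 the genes between the members lie above the fold limit in OX and in KO, as does Mapoly0004s0259. On scaffold 48, Mapoly0048s0054 between the members lies below the limit in KO (-1.91) but not in OX (0.33), and Mapoly0048s0055 lies above it in both.

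The WT and OX replicates differed more for the members than for other genes of like level. The rule used these same library values to choose the members, while the other genes were not chosen by them. The gap is therefore a description and is not read as a trait of the members. Among genes of 1 to 5 CPM in WT, the coefficient of variation over the 3 WT libraries had a median of 27.2% for 35 members and 14.4% for 1909 other genes tested. From 5 to 60 CPM the medians were 13.7% for 18 members and 6.43% for 7178 others. In KO, members of 1 to 5 CPM had a median of 14.5% (26 genes), close to the 12.9% of 1940 others, and in OX 21.6% (15 genes) against 13.4% of 1870 others. From 5 to 60 CPM there were few members, 2 in OX (21.9%, against 5.32% of others) and 3 in KO (1.47%, against 5.81%). The members with the largest variation in WT above 5 CPM were Mapoly0143s0043 (32.6%), Mapoly0061s0005 (32.2%) and Mapoly0134s0045 (22.0%).

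The variation was not spread evenly over the WT libraries. WT replicate 3 was the lowest WT library for 32 of the 54 members (59.3%), against 29.7% of all genes tested, and the highest for 8 (14.8%, against 41.9%). Of the 28 genes lower in OX, 23 had their lowest WT value in replicate 3. WT replicate 2, the shallowest library, was the highest for 26 members (48.1%, against 25.7%). Among the OX libraries, replicate 2 was the highest for 27 members (50.0%, against 35.4%). It had 3 members at 0 pairs, where the other 2 OX libraries had 7 each. These shares describe 9 libraries. They come from values that the rule used, while the genes tested as background were not chosen by them. The gap between the shares is therefore not read as a trait of the members. The part of WT replicate 3 in the choice of members can be stated directly: without it the rule took in 77 genes, 53 of them among the 54. Then 35 of the 77 had another member within 10 gene numbers. The share of other genes close to this longer list is not given, so the count cannot be set against that of the 54.

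**Figure D5:**
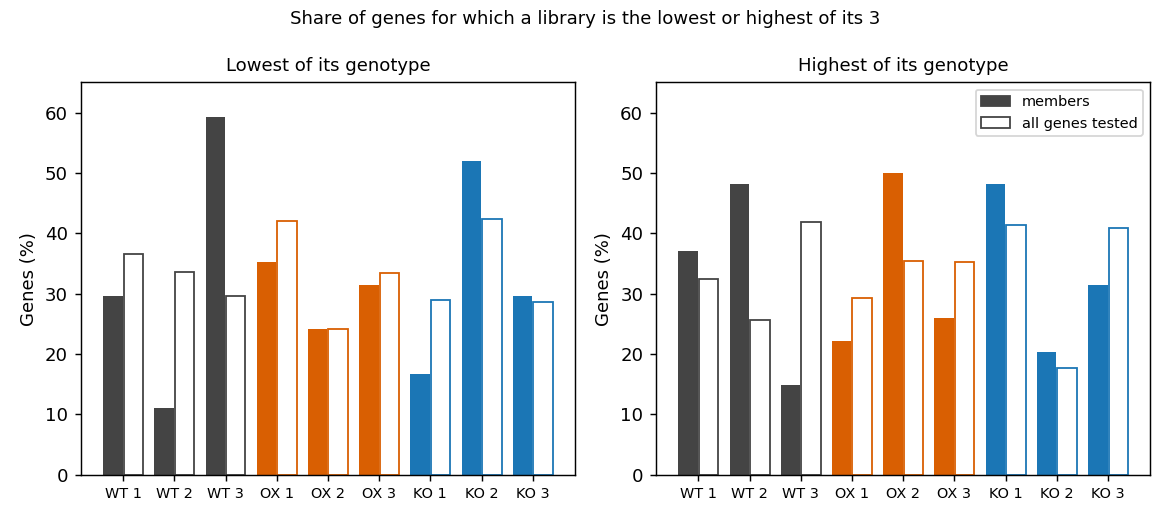
Share of genes (%) for which a library is the lowest (left) or the highest (right) of the 3 libraries of its genotype, for the 54 members (filled bars) and for all 14813 genes tested (open bars). WT replicate 3 is the lowest WT library for 59.3% of members and 29.7% of all genes, and OX replicate 2 the highest OX library for 50.0% and 35.4%. The members were chosen by these library values.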

How the data were processed

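The authors deposited raw counts per gene, 1 column per library, with no normalization; all 173583 values were even. The submitters' processing notes name STAR 2.5.1b and featureCounts 1.5; settings, strandedness and genome build: not given in the sources used here. The table held 0 columns of other samples.

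Genes were kept by filterByExpr (14813 of 19287), scaled by TMM factors (0.958 to 1.04) and fitted in edgeR 4.0.16 (R 4.3.3) with a quasi-likelihood model of 1 mean per genotype over all 9 libraries; every adjusted p is Benjamini-Hochberg over the whole set tested (threshold 0.05). Alternatives used DESeq2 1.42.0 and limma 3.58.1. The script was tested on simulated counts. CPM in the text uses library totals without TMM factors. The value after ± beside a log2 fold change is an approximate SE. It is the absolute fold change divided by the square root of the F statistic of the quasi-likelihood test, fitted over all 9 libraries. Ratios of summed pairs have 95% exact (Clopper-Pearson) intervals. The p-values cover the spread between replicates of a line, which the design calls biological.

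The members and lists were chosen with earlier results of these data known. Named members are the 8 with most CPM in WT, the 4 furthest below WT in both genotypes above 5 CPM, the 4 with the largest OX against KO difference each way (3 were higher), runs of 3 or more neighbours, the 3 most variable in WT above 5 CPM, and the 2 genes on either side of the fold limit. Lists defined by product names could not be used, since 0 IDs matched the 18391 rows of the reference table.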

Additional observations from a re-analysis of the deposited data

How the results depend on the processing

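The number of genes lower in OX than in KO among the members was 28 as reported, 28 under each of 3 other scalings, without a filter and with halved counts, 23 with a filter of 1 CPM in 3 libraries (which leaves fewer members to test), 26 with OX and KO libraries alone, 33 in DESeq2 and 26 in limma-voom; leaving out 1 library gave 26 to 30. The number higher in OX was 3 under each of these settings and 2 to 3 with 1 library left out. The number of members follows from its limits: it was 24 with a pseudocount of 1 CPM, 21 with a 3-fold limit, 7 with a 4-fold limit, 19 with a level limit of 5 CPM, 86 with none, 61 without the condition on separate libraries, and 49 with TMM-scaled CPM or with edgeR calls of at least 2-fold (48 of the 54 in each). Leaving out 1 library gave 44 to 77 members, and 15 to 35 members with another within 10 gene numbers. The highest values came without WT replicate 3. The share of other genes close to a member is not given for these lists. Among the 54, 8 had a member at the next number. Of 394 recomputed fold changes of the 21 named members, 378 kept their direction and side of the threshold. Those that changed sign were uncalled differences near 0: Mapoly0013s0003 moved from -0.01 to 0.06 with library size alone, to 0.00 with upper-quartile factors and to 0.10 to 0.12 without OX replicate 1, OX replicate 3 or KO replicate 3, and Mapoly0005s0293 from -0.23 to 0.00 without KO replicate 3. Without 1 library the first ran from -0.28 to 0.12 and the second from -0.39 to 0.00. A further 6 lost and 4 gained a call; Mapoly0034s0136 passed without OX replicate 2 (-0.71, edgeR adjusted p = 0.0454), and the others stand in the text above. Where the cause is not the setting's own construction, it was not tested.

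By the labels, same-numbered libraries have nothing in common but the number. Correlations of their deviations from the mean of their genotype ran from 0.00961 to 0.241, and 6 of the 9 exceeded 0.1; differently numbered libraries gave -0.259 to 0.023. With the replicate number as a block, 33 members were lower and 3 higher in OX than in KO: the 28 reported as lower and 5 of the 23 that did not pass, Mapoly0008s0176, Mapoly0028s0091, Mapoly0035s0086, Mapoly0054s0040 and Mapoly0120s0017. Depth limits the genes with at most 3 pairs in OX (6 members) or in KO (2 members), whose fold changes are bounds or wide intervals.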
